A study of Mus musculus with 2 samples.

Results

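Broad accessible domains are stretches of open chromatin that the peak caller reported as 1 peak of unusual width. Here they are the peaks of the WT list on chromosomes 1 to 19 that were 2500 bp or wider, which gave 871 domains among 125906 WT peaks on these chromosomes, or 0.692% of them. They came from an ATAC-seq study of sorted colonic macrophages that compared Tle4cKO mice (genotype Tle4f/f Lyz2-Cre) with WT mice (genotype Lyz2-Cre), so that both groups carry the Cre driver. All mice were untreated C57BL/6 males aged 18.9 weeks, the sorting gate was CD64+ Siglec-F- with low Ly6C, and 1 library per genotype was made from 2 mice pooled before sorting. Lyz2-Cre acts in myeloid cells in general, and which part of Tle4 it removes is not given in the sources used here. Because the domains were chosen by their width in the WT library, their WT width is a description and not a result. The same choice lowers the width to be found in any second library, so the reverse choice, by Tle4cKO width, is given beside it.

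ATAC-seq reads open chromatin through the Tn5 transposase, which inserts sequencing adapters where DNA is not wrapped in nucleosomes. Most accessible sites are short, while wide ones are known from promoters of heavily used genes and from dense enhancer clusters near genes that set a cell type. Tle4 belongs to the Groucho family of corepressors, which do not bind DNA themselves and are brought to it by transcription factors, where they recruit histone deacetylases. Colonic macrophages are renewed largely from blood monocytes, take up microbes and dying cells at the mucosa, and present antigen on MHC class II.

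The sequence beneath the domains ranged from very CpG-dense to CpG-free promoters, and 5 of these are shown to make that range visible. They are RefSeq promoters of GRCm38.p6, from 250 bases before to 50 bases after the gene start, each lying wholly inside a domain, written 5′ to 3′ on the gene's own strand with every CG dinucleotide in capitals. Klf4 (chr4:55532426-55532725, minus strand) and Cebpa (chr7:35119043-35119342, plus strand) encode myeloid transcription factors, Jun (chr4:95052173-95052472, minus strand) encodes a subunit of AP-1, and H2-Aa (chr17:34287774-34288073, minus strand) and H2-Eb1 (chr17:34305617-34305916, plus strand) encode MHC class II chains.
Klf4: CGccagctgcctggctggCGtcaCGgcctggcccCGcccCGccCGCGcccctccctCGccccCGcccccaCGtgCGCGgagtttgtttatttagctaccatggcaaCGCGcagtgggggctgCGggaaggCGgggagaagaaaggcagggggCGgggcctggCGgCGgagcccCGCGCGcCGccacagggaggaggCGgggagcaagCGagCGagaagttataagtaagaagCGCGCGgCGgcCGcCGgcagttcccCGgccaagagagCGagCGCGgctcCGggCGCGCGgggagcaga
Cebpa: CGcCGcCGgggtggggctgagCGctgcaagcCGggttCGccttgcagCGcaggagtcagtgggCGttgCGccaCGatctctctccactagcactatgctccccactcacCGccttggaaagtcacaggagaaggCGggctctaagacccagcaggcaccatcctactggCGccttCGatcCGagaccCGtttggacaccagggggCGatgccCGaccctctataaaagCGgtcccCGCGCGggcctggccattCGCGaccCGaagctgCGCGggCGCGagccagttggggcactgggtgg
Jun: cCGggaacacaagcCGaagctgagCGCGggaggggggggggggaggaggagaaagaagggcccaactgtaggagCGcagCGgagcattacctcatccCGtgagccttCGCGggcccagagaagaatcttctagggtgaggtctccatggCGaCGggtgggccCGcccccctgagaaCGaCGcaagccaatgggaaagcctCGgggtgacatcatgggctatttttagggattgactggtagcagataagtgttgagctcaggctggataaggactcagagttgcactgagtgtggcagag
H2-Aa: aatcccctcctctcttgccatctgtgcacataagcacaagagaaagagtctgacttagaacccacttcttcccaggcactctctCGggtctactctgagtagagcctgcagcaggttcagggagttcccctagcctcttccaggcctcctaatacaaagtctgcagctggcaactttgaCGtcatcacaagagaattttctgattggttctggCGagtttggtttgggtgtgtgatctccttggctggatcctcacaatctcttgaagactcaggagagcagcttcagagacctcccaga
H2-Eb1: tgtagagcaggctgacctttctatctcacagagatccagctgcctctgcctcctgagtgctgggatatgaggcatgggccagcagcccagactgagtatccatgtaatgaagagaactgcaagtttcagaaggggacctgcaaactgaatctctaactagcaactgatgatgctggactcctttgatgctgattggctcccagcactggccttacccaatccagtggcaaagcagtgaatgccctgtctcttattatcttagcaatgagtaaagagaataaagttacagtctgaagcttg
Klf4 held 40 CG dinucleotides in its 300 bases, Cebpa 29, Jun 15, H2-Aa 3 and H2-Eb1 none. The ratio of observed to expected CG, which corrects for base composition, was 0.974 at Klf4, 0.853 at Cebpa, 0.594 at Jun and 0.158 at H2-Aa. The WT summit lay 351 bp upstream of the Klf4 start, 112 bp upstream of the Cebpa start, 401 bp upstream of the Jun start and 29 bp downstream of the H2-Aa start.

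Across all domains, 687 promoters of 548 genes in the table lay wholly inside, in 486 domains. They averaged 64.8% G and C, against 62.2% for promoters inside other WT peaks of like pileup and 56.5% for all 20084 promoters of protein-coding genes on the chromosomes analysed. Their observed over expected CG averaged 0.787, against 0.775 at like pileup and 0.550 for all promoters. A ratio of 0.6 or more was found in 79.2% of domain promoters, against 80.9% at like pileup and 48.9% of all promoters. Domain promoters were therefore CpG-rich to nearly the same degree as those of other equally high peaks.

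Short motifs were searched on both strands of the same promoters. The Sp and KLF type box GGGCGG stood in 70.2% of domain promoters, against 69.9% at like pileup and 47.0% of all promoters. The ETS-type motif CCGGAAG stood in 14.8% of domain promoters (exact 95% interval 12.3 to 17.7%), against 21.4% at like pileup and 11.9% of all promoters. The CCAAT box stood in 32.6% (29.1 to 36.3%), against 40.1% at like pileup and 38.1% of all promoters. TATAAA was found in 6.40%, against 5.73% at like pileup and 12.7% of all promoters. The AP-1 type motif TGANTCA was found in 4.80%, against 4.56% at like pileup and 7.06% of all promoters, and the E-box CACGTG in 10.5%, against 10.8% at like pileup and 7.89% of all promoters. Motifs of more than 7 letters are not reported here. Promoters of 1 gene can overlap and are counted separately, and a match is a description of letters and not a bound site.

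Of 919 miRNA hairpins on these chromosomes in the RefSeq table, 8 overlapped a domain, or 0.871%, and 151 overlapped any WT peak. The hairpin of miR-142, an abundant miRNA of blood cell lineages, lay inside the domain at Tspoap1 (chr11:87755055-87757617), and its mature arms and that of the antisense miR-142b are shown with the seed, bases 2 to 8, in capitals.
miR-142a-5p: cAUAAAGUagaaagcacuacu
miR-142a-3p: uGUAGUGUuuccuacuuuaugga
miR-142b: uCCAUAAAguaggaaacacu
None of the 3 seeds was the same as another. The Tspoap1 domain had a pileup of 142 in the Tle4cKO library, against 168 in the WT library. It was 1 peak of 2564 bp in the Tle4cKO library, against 2563 bp in the WT library, and the Tle4cKO peak covered 99.7% of it. The other hairpins were Mir5620 at Clcn4, Mir707 at Tbc1d17, Mir8104 at Ppm1h, Mir7653 at Tlcd1 and Mir5130 at Kctd12. Mir3069 overlapped only the edge of the Glrx5 domain, with its hairpin starting 45 bp outside.

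Each deposited peak carries the pileup at its summit, a whole-number signal of overlapping fragments, and has no SD because there is 1 library per genotype. Every difference below describes these 2 libraries without a replicate check, and no test between genotypes was possible. Over all peaks on chromosomes 1 to 19, the median pileup was 20 in the Tle4cKO list and 28 in the WT list, and the median width was 604 bp in the Tle4cKO list and 671 bp in the WT list. The number of reads per library is not given in the sources used here, so depth and pooled animals cannot be told apart from genotype. Macrophage identity genes had a peak within 1000 bp of a gene end in the Tle4cKO list for 24 of 25 genes and in the WT list for 25 of 25. The median of the highest such pileup was 115 in the Tle4cKO list and 138 in the WT list. Of 69 marker genes of 12 other cell types, 44 had such a peak in the Tle4cKO list and 51 in the WT list, and the same median was 17 in the Tle4cKO list and 29 in the WT list. The lists above that WT median were the dendritic cell markers, at 87 in the Tle4cKO list and 116 in the WT list, the monocyte markers, at 21 in the Tle4cKO list and 71 in the WT list, the fibroblast and muscle markers, at 22 in the Tle4cKO list and 49 in the WT list, and the B and plasma cell markers, at 29 in the Tle4cKO list and 40 in the WT list. All 4 mast cell markers had no peak in either list. An accessible gene end is no measure of expression, and the part of other cells in the results was not tested.

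The 871 domains spanned 2.46 Mb together and held 2.49% of all WT peak width. Their WT width had a median of 2743 bp and reached 4402 bp. Their WT pileup had a median of 152, with quartiles of 117 and 185 and a range of 15 to 314, while the other 125035 WT peaks had a median of 28. Thus 599 domains were in the highest 10% of WT peaks by pileup, and 42 were wide with a pileup below 60. At the threshold itself, the narrowest domains were at Ramp1 (2500 bp, pileup 108), Creb5 (2501 bp, 139), Fars2 (2502 bp, 101), Gm26562 (2502 bp, 139) and Hspbap1 (2502 bp, 176). The widest WT peaks that missed it were at Gna13 (2499 bp, pileup 193), Ktn1 (2499 bp, 130), Golph3 (2499 bp, 167), Pcgf5 (2499 bp, 172) and Malat1 (2498 bp, 108).

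The widest domains lay at genes of diverse function. The widest was at Ctsz, which encodes the lysosomal protease cathepsin Z (chr2:174436001-174440402, build mm10). It had 1 Tle4cKO peak of 4074 bp, against the WT peak of 4402 bp, and a pileup of 173 in the Tle4cKO library and 208 in the WT library. Its WT summit lay in the gene body, 1274 bp from the start. The next was at Phf2, a histone demethylase gene, with 2 Tle4cKO peaks of 3872 bp in total, against 4400 bp in WT, and a pileup of 82 in Tle4cKO and 100 in WT. St8sia4, which encodes a polysialic acid synthase, had 2 Tle4cKO peaks of 3651 bp in total, against 4345 bp in WT, with pileups of 183 in Tle4cKO and 203 in WT. These 3 were followed by Ubtf, Mllt3, Tmem259, Cux1, N4bp2l1, Tmigd3 and Nipbl, at WT widths of 4222 down to 3890 bp. Of the 10 widest domains, those at Ctsz, N4bp2l1 and Tmigd3 had a single Tle4cKO peak.

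The highest domain lay nearest to AY036118, a locus known for sequence like ribosomal RNA, with a pileup of 273 in Tle4cKO and 314 in WT. How reads that map to several places were treated is not given in the sources used here. It was followed by G3bp1, a stress granule gene, with 232 in Tle4cKO and 262 in WT. The domain named after Wdr81, which lies 6558 bp from its WT summit, had 230 in Tle4cKO and 260 in WT. Brpf1, a subunit gene of a histone acetyltransferase complex, had 223 in Tle4cKO and 260 in WT. Xpo1, which encodes the nuclear export receptor exportin, had 225 in Tle4cKO and 255 in WT. Pim1, a kinase gene induced by cytokines, had 189 in Tle4cKO and 250 in WT. The other 4 of the 10 highest were at Mex3c, Clcn4, Cnot3 and Cdk19, and all 10 were lower in the Tle4cKO library than in the WT library.

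By position, 440 domains (50.5%, exact 95% interval 47.1 to 53.9%) had the WT summit within 1000 bp of either end of a protein-coding gene in the RefSeq annotation. The share over all WT peaks on these chromosomes was 11.7%. Another 290 domains (33.3%) had the summit in a gene body and 141 (16.2%) outside genes. Peaks near gene ends are high in general, and among other WT peaks of like pileup 42.2% were near a gene end, 33.0% in a gene body and 24.8% outside genes. Most of the gap to all WT peaks was thus also present at narrower peaks of the same height. Of the 440 gene-end domains, the nearest end was a gene start in 339, the opposite end in 6 and not known in 95. Gene starts on chromosome 18 were not analysed here.

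**Figure D1:**
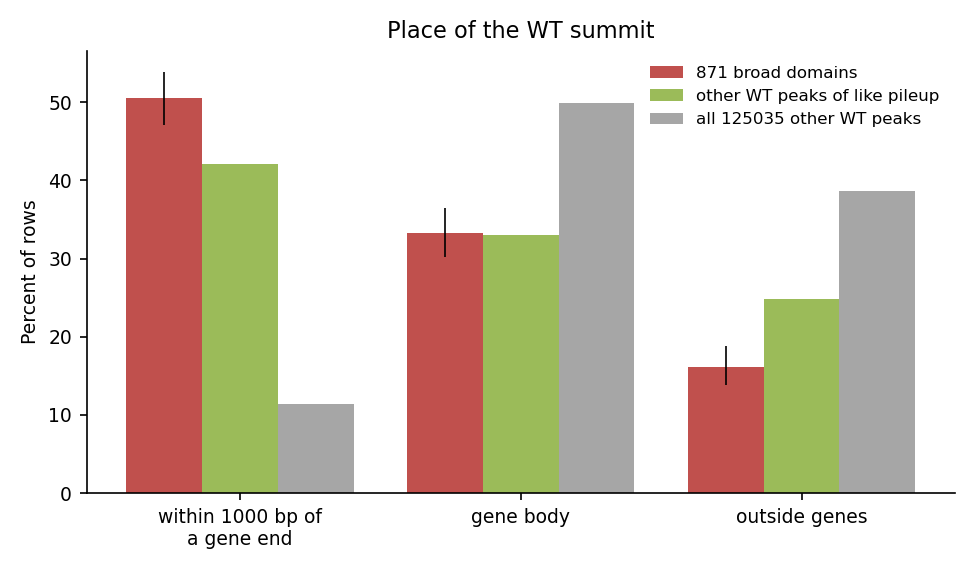
Percent of peaks (y axis) whose WT summit lies within 1000 bp of a gene end, in a gene body or outside genes, for the 871 domains, for other WT peaks averaged to the same pileup, and for all 125035 other WT peaks; black lines are exact 95% intervals of the domains' shares and cover counting error only. Domains reach 50.5% at gene ends, against 42.2% at like pileup and 11.5% for all other peaks.

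On the 18 chromosomes with starts in the table, 427 of 837 domains held the start of 1 gene, 64 held the starts of 2 or more genes and 346 held none. In 63 domains starts lay on both strands, as at Mbd6 and Ddit3, where Ddit3 encodes the stress factor CHOP. The Mbd6 domain was 1 Tle4cKO peak of 3342 bp, against 3443 bp in WT. In 12 domains 1 or more protein-coding genes fitted wholly inside. They include Ier3, an early response gene, whose domain had a pileup of 132 in Tle4cKO and 168 in WT. Higd2a, a mitochondrial gene, lay in a domain with 130 in Tle4cKO and 160 in WT, and Rpl41, a very short ribosomal protein gene, in the Zc3h10 domain with 164 in Tle4cKO and 185 in WT. The histone genes H2ac20 and H2ac21 shared a domain with 125 in Tle4cKO and 152 in WT.

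Domains extended further into genes than away from them. In 394 domains that held the start of exactly 1 gene and no end of another, the WT peak reached a median of 1666 bp downstream of the start and 1118 bp upstream. It went further downstream in 267 of them (67.8%, exact 95% interval 62.9 to 72.4%), and in 67.7% of 8033 other WT peaks with 1 start, so the lean was no greater in domains. The WT summit lay within 500 bp of the start in 74.9% of the 394 domains, against 94.1% of the other peaks. The summit was downstream of the start in 49.2% of the domains, against 64.2% of the other peaks. The Tle4cKO cover fell short by 26912 bp at the upstream edges, 32755 bp at the downstream edges and 28762 bp between pieces of the 394 domains. In 7856 other WT peaks with 1 start and an overlap, the downstream sum was also larger, at 527481 bp against 417970 bp upstream.

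**Figure D2:**
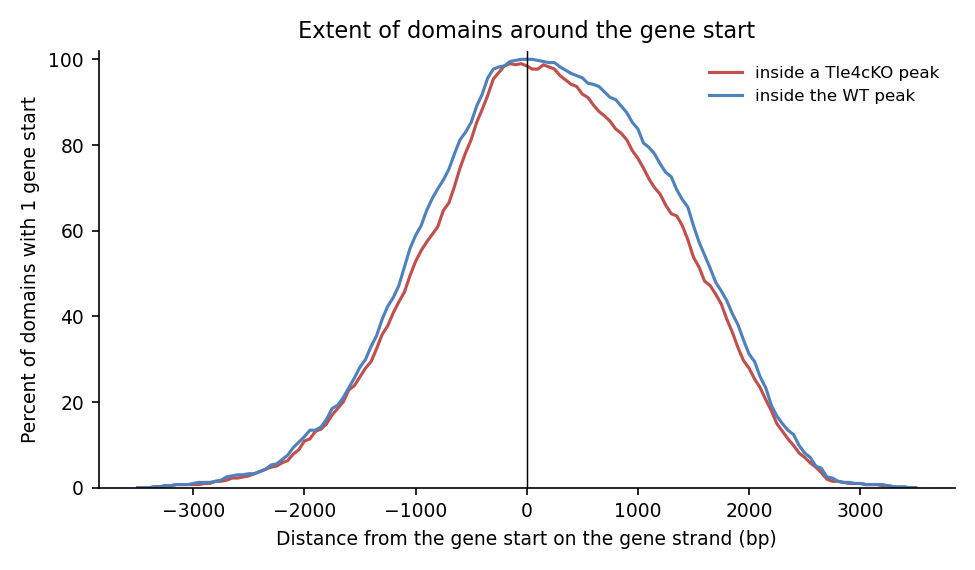
Percent of the 394 domains with 1 gene start (y axis) in which a position lies inside a Tle4cKO peak or inside the WT peak, by distance from the start in bp on the gene's strand (x axis). Both curves lean to the right of the start, with WT medians of 1666 bp downstream and 1118 bp upstream, and the Tle4cKO curve runs at or below the WT curve.

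Several domains lay more than once at the same gene. Runx1, a transcription factor gene of the blood lineages, had a domain at a gene end with 126 in Tle4cKO and 155 in WT and another in the gene body with 120 in Tle4cKO and 145 in WT. Kdm6b, which encodes the H3K27 demethylase JMJD3, had domains with 191 in Tle4cKO and 226 in WT and with 154 in Tle4cKO and 194 in WT. Dnmt3a, a DNA methyltransferase gene, had domains with 79 in Tle4cKO and 124 in WT and with 88 in Tle4cKO and 144 in WT. Mef2a, a transcription factor gene, had domains with 79 in Tle4cKO and 94 in WT and with 169 in Tle4cKO and 189 in WT. These genes were chosen after their values were seen.

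Genes of the immediate early and AP-1 list, which are switched on within minutes of a stimulus, had the largest number of domains among the gene lists. Of its 30 genes, 9 (30.0%) had a domain within 1000 bp of a gene end, against 3.41% of all 20661 protein-coding genes on these chromosomes. All 30 had some WT peak there, against 68.1% of all protein-coding genes, and 30.8% of 13 housekeeping genes had a domain. Jun had 1 Tle4cKO peak of 3797 bp, against 3733 bp in WT, and a pileup of 177 in Tle4cKO and 196 in WT. Fosb, which encodes a partner of Jun in AP-1, had 2 Tle4cKO peaks of 3062 bp in total, against 3342 bp in WT, with pileups of 167 in Tle4cKO and 186 in WT. Egr2, a zinc finger factor gene used in macrophages, had 181 in Tle4cKO and 196 in WT. Klf10 had 210 in Tle4cKO and 241 in WT, and Egr3 had 122 in Tle4cKO and 156 in WT. Jund, Ier3, Dusp1 and Gadd45b made up the 9, and in all 9 the Tle4cKO pileup was below the WT pileup, as in 869 of all 871 domains.

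Myeloid transcription factor genes had domains at a gene end at 8 of 32 (25%), against 3.41% of all protein-coding genes. Cebpa, required for the granulocyte and monocyte lineages, had 1 Tle4cKO peak of 3030 bp, against 3114 bp in WT, with pileups of 167 in Tle4cKO and 198 in WT. Klf4 had 133 in Tle4cKO and 174 in WT, and Klf13 had 192 in Tle4cKO and 222 in WT. Fli1, an ETS factor gene, had 2 Tle4cKO peaks that covered 78.8% of its domain, with 139 in Tle4cKO and 161 in WT. Bhlhe40, Nfil3 and Runx1 were also among the 8. Of 25 macrophage identity genes, 2 (8%, exact 95% interval 0.984 to 26.0%) had a domain at a gene end, among them Cd14. The interval includes the 3.41% of all protein-coding genes. Within the gene or 10 kb on either side, 4 of the 25 had 1, against 5.5% of all protein-coding genes.

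The macrophage genes Csf1r and Spi1 had domains in the gene body. Csf1r encodes the receptor for the growth factor that macrophages need. Its domain (chr18:61106671-61109253) had a pileup of 164 in Tle4cKO and 196 in WT. Spi1 encodes PU.1, the ETS factor of the myeloid lineage, and its domain (chr2:91096288-91099429) had 137 in Tle4cKO and 156 in WT. The single Tle4cKO peak there was 3223 bp wide, against 3142 bp in WT. Spi1 was named after its value was seen.

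Among 17 antigen presentation genes, 5 (29.4%) had a domain at a gene end, against 3.41% of all protein-coding genes. H2-Aa had 1 Tle4cKO peak of 2586 bp, against 2637 bp in WT, with pileups of 162 in Tle4cKO and 171 in WT. H2-Eb1 had 2 Tle4cKO peaks of 963 and 1490 bp with pileups of 125 and 164, against 1 WT peak of 2795 bp with a pileup of 179. H2-Ab1 had 3 Tle4cKO peaks of 918, 745 and 545 bp with pileups of 127, 92 and 73, against 1 WT peak of 2682 bp with a pileup of 159. As the peaks were called, these 3 class II genes thus differed in whether the Tle4cKO list kept the domain whole, although their WT widths were alike. The difference rests on short gaps. At H2-Ab1 the pieces ended at chr17:34263671 and 34264555 and resumed at 34263811 and 34264671. At H2-Eb1 the first piece ended at 34305214 and the next began at 34305450. H2-K1, a class I gene, had 154 in Tle4cKO and 183 in WT, and the domain at an end of Tapbp, which loads class I molecules, had 116 in Tle4cKO and 166 in WT. MHC genes resemble each other in sequence, and how reads that fit several of them were counted is not given in the sources used here.

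By share, signalling lists ran from 5.56% of genes (NF-kappaB pathway) to 22.2% (JAK-STAT and SOCS), against 3.41% of all protein-coding genes. The exact 95% intervals of the NF-kappaB, cytokine and interferon lists include that 3.41%. Only a few genes of each list had a domain. Of 18 JAK-STAT and SOCS genes 4 did, with Stat5a and Stat5b sharing 1 domain of 138 in Tle4cKO and 176 in WT, Stat6 having 132 in Tle4cKO and 163 in WT and Socs2 91 in Tle4cKO and 117 in WT. Of 27 cytokine and chemokine genes 3 did. Il12a, which encodes a subunit of interleukin-12, had a low domain of 41 in Tle4cKO and 70 in WT. Tgfb1 had 179 in Tle4cKO and 205 in WT, and Vegfa had 95 in Tle4cKO and 137 in WT. Of 18 NF-kappaB pathway genes Birc3 alone did, with 187 in Tle4cKO and 224 in WT, and of 17 interferon response genes Irf2 alone did, with 120 in Tle4cKO and 155 in WT.

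The TLE family and the pathways in which its proteins act as corepressors were represented by single genes or a few. The share over all protein-coding genes, 3.41%, lies within the exact 95% intervals of the TLE list and the Notch list. Of 7 TLE family genes, Tle1 had a domain, with 190 in Tle4cKO and 224 in WT, and its Tle4cKO peak was 3011 bp wide, against 3163 bp in the WT list. No domain lay at Tle4 itself or within 10 kb of it. Of 19 Notch and HES genes, Jag1, a Notch ligand gene, had a domain with 143 in Tle4cKO and 174 in WT. Of 19 Wnt and TCF/LEF genes 4 did. Among these, Lrp5, a Wnt co-receptor gene, had 60 in Tle4cKO and 103 in WT, Fzd5, a Wnt receptor gene, had 161 in Tle4cKO and 206 in WT, and Ctnnb1, which encodes beta-catenin, had 111 in Tle4cKO and 125 in WT.

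Lists of effector and general genes ran from 1 of 37 to 4 of 13 genes with a domain, against 3.41% of all protein-coding genes. Of 20 lysosome genes 4 had a domain, namely Ctsz, Cd63, Tfeb and Atp6v1a, with Tfeb, the master regulator of lysosome genes, at 116 in Tle4cKO and 144 in WT. Of 23 phagocytosis and efferocytosis genes Axl, Dock1 and Vav3 had 1, with 167 in Tle4cKO and 195 in WT at Axl, a receptor for dying cells. Housekeeping genes had a domain at 4 of 13, among them Gapdh, Ubb and Tubb5, with Gapdh at 148 in Tle4cKO and 176 in WT. Ribosomal protein genes had a domain at 1 of 37, Rpl7, although all 37 had some WT peak at a gene end.

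None of 38 developmental homeobox and related genes and none of 20 genes not expected in macrophages had a domain at a gene end. With 3.41% of all protein-coding genes at a domain, lists of this size could hold none, and the exact 95% upper limits of 9.25% for the 38 and 16.8% for the 20 include that share. Some WT peak stood at a gene end in 21 of the 38 and in 6 of the 20, against 68.1% of all protein-coding genes. Among the marker genes of other cell types, the dendritic cell marker Xcr1 had a domain, which its end shares with Fyco1, with 155 in Tle4cKO and 182 in WT. The shares of the lists were not tested against each other.

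**Figure D3:**
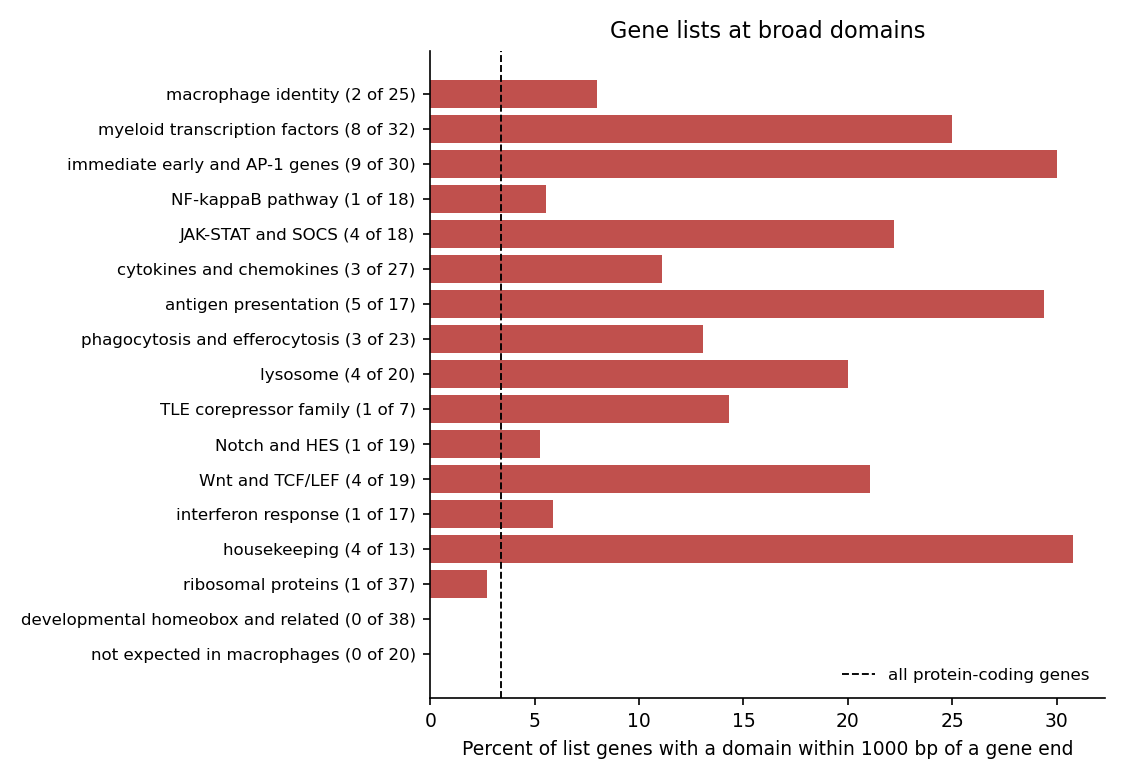
Percent of the genes of each list described here on chromosomes 1 to 19 (x axis) with a domain within 1000 bp of a gene end; the counts stand beside the list names and the dashed line marks the 3.41% of all protein-coding genes. Housekeeping, immediate early and antigen presentation genes reach about the same level, and the developmental and not-expected lists have no domain.

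All 871 domains were overlapped by at least 1 Tle4cKO peak, while 27% of all WT peaks on these chromosomes had none. At like pileup, 99.0% of other WT peaks were overlapped too. The highest overlapping Tle4cKO pileup had a median of 120, with quartiles of 89 and 152, against a WT median of 152. It was below the WT pileup in 869 of 871 domains (99.8%). The same held for 89.6% of the 91030 other WT peaks with a Tle4cKO overlap. The exceptions among domains were Sfi1, a centrosome gene, with 125 in Tle4cKO and 115 in WT, and Arhgap27, with 106 in both libraries. The Arhgap27 summits were at different places, chr11:103363238 in Tle4cKO and chr11:103361777 in WT. The ratio of Tle4cKO to WT pileup had a median of 0.801 and ran from 0.474 to 1.09, while the median over other WT peaks with a Tle4cKO overlap was 0.743.

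Because low and high peaks differed in that ratio, each domain was also read against WT peaks of like summed pileup. On that scale the median relative log2 ratio of the domains was 0.01, with quartiles of -0.06 and 0.08. A relative ratio at least 25% above that of like peaks was found in 10 domains (1.15%), against 12.8% of all peaks with an overlap and 1.53% of other peaks of like pileup. A ratio at least 20% below it was found in 5 domains (0.574%), against 13% of all such peaks and 2.79% at like pileup. Departures of this size were thus rarer in domains than over all peaks, as they also were in other peaks of like pileup.

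The domains farthest above that relation were at Sfi1 (relative ratio 1.41), Ankrd33b (1.38), Nptx1 (1.35), Adrb1 (1.34) and Arhgap27 (1.33). Ankrd33b had a pileup of 76 in Tle4cKO and 77 in WT, and its raw ratio of 0.987 had an exact 95% interval of 0.709 to 1.37. Adrb1, a beta-adrenergic receptor gene, had 61 in Tle4cKO and 65 in WT. Nptx1, which encodes a neuronal pentraxin, had 28 in Tle4cKO and 30 in WT, a raw ratio of 0.933 with an interval of 0.537 to 1.62. Its summits also differed in place, at chr11:119547555 in Tle4cKO and chr11:119546744 in WT. In these 5 domains the Tle4cKO pileup was close to the WT pileup or above it, which reflects their choice by a high relative ratio. The intervals cover counting error only and are approximate, since a summit pileup is a maximum.

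The domains farthest below it were at Rgs10 (relative ratio 0.685), Patz1 (0.714), Ramp1 (0.760), Gm38623 (0.762) and Cryba4 (0.783). Rgs10, a regulator of G protein signalling, had 18 in Tle4cKO and 38 in WT, a raw ratio of 0.474 with an exact 95% interval of 0.254 to 0.851. Patz1, a zinc finger repressor gene, had 57 in Tle4cKO and 111 in WT, a raw ratio of 0.514 with an interval of 0.366 to 0.713. Ramp1, which encodes part of the receptor for the neuropeptide CGRP, had 59 in Tle4cKO and 108 in WT, a raw ratio of 0.546 with an interval of 0.391 to 0.757. These intervals are of raw ratios, whose median over all domains was 0.801, so they are not to be read against 1. They also make no allowance for picking these domains as the lowest by relative ratio. The Patz1 and Ramp1 domains were each still 1 Tle4cKO peak, of 2634 bp against 2910 bp in WT at Patz1 and of 2508 bp against 2500 bp in WT at Ramp1.

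**Figure D4:**
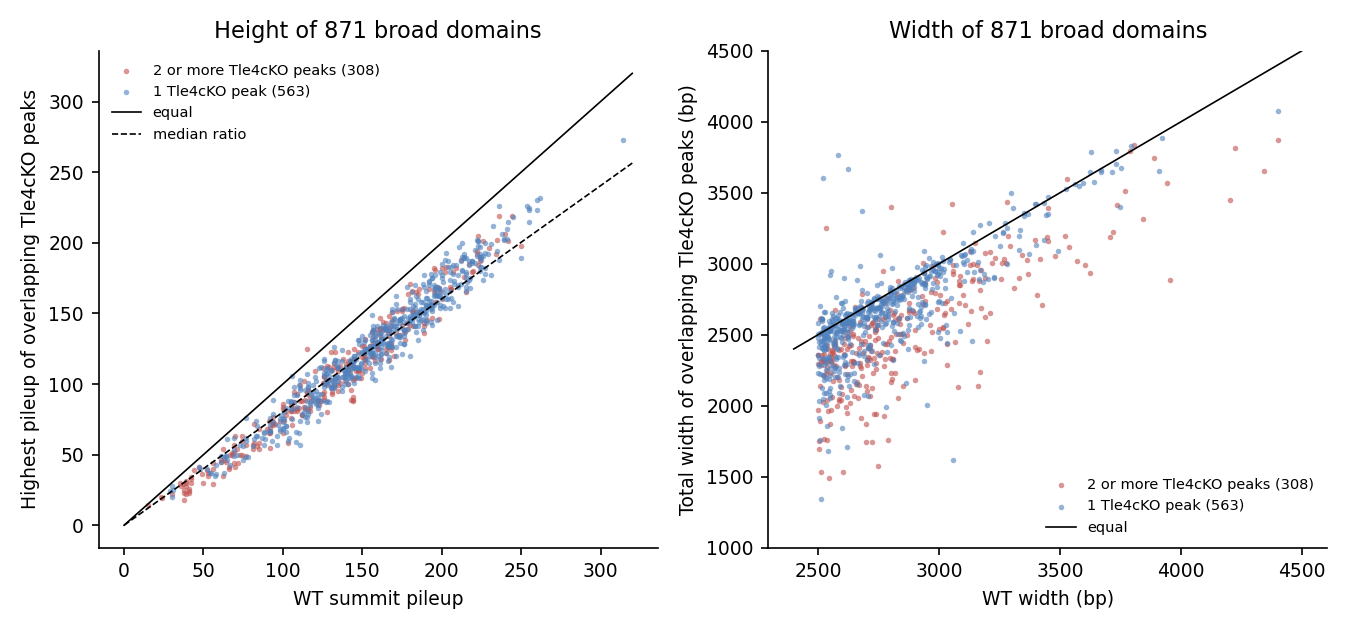
Left, highest pileup of the overlapping Tle4cKO peaks (y axis) against the WT summit pileup (x axis) for the 871 domains; right, total width of the overlapping Tle4cKO peaks (y axis, bp, from 1000) against the WT width (x axis, bp). Nearly all points lie below the line of equal height and around the median ratio of 0.801, and domains with 2 or more Tle4cKO peaks (red) lie mostly below the line of equal width.

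In the Tle4cKO list, 308 of 871 domains (35.4%, exact 95% interval 32.2 to 38.6%) were overlapped by 2 or more peaks. The share was 4.26% over all WT peaks and 3.72% over other WT peaks of like pileup, which averaged 1379 bp in width, against 2826 bp for the domains. Within the domains the share also differed with width, at 48.9% of those of 3000 bp or more and 31.8% of those under 3000 bp. A single Tle4cKO peak overlapped 563 domains, 2 overlapped 262, 3 overlapped 40 and 4 overlapped 6. In split domains the widest piece had a median of 1684 bp and the narrowest a median of 712.5 bp. The highest piece had a median pileup of 109 and the lowest a median of 51.5. The gaps between pieces summed to a median of 197.5 bp per split domain, with a range of 106 to 920 bp. With Tle4cKO peaks less than 200 bp apart joined first, 15.4% of domains were split, and with those less than 500 bp apart joined, 1.95% were.

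The 6 domains with 4 Tle4cKO peaks were at Mllt3, Rgs10, Dusp14 and Tmem178b and nearest to Gm3716 and F630040K05Rik. Mllt3, a gene of a transcription elongation complex, had pieces of 362, 285, 1430 and 1374 bp with pileups of 28, 42, 109 and 39, against 1 WT peak of 4204 bp and a pileup of 135. Tmem259 had pieces of 217, 2020 and 646 bp with pileups of 61, 188 and 79, against 1 WT peak of 3954 bp and a pileup of 212. Ubtf, which encodes a factor for ribosomal RNA transcription, had pieces of 1608, 1602 and 606 bp with pileups of 111, 81 and 49, against 1 WT peak of 4222 bp and a pileup of 152. In these 3 domains the highest piece held the WT summit and lower pieces stood beside it. In Rgs10 the 4 pieces had pileups of 14, 18, 10 and 13, while the lowest pileup of any peak in the lists was 7.

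Splitting was more frequent in lower domains. With the domains ranked by WT pileup in 4 classes of equal number, from the lowest to the highest, the share with 2 or more Tle4cKO peaks was 50.9%, 38.5%, 30.4% and 21.6%. Median WT widths in these classes were 2726.5, 2732, 2764 and 2756 bp, so width differed little between them. Split domains were 31.1% of those at gene ends, 37.6% of those in gene bodies and 44.0% of those outside genes, and the median WT pileup was 163.5 at gene ends, 140 in gene bodies and 139 outside genes. Of the 42 domains with a WT pileup below 60, 30 were split (71.4%), and their median cover was 81.5%. The part of depth in these shares was not tested.

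**Figure D5:**
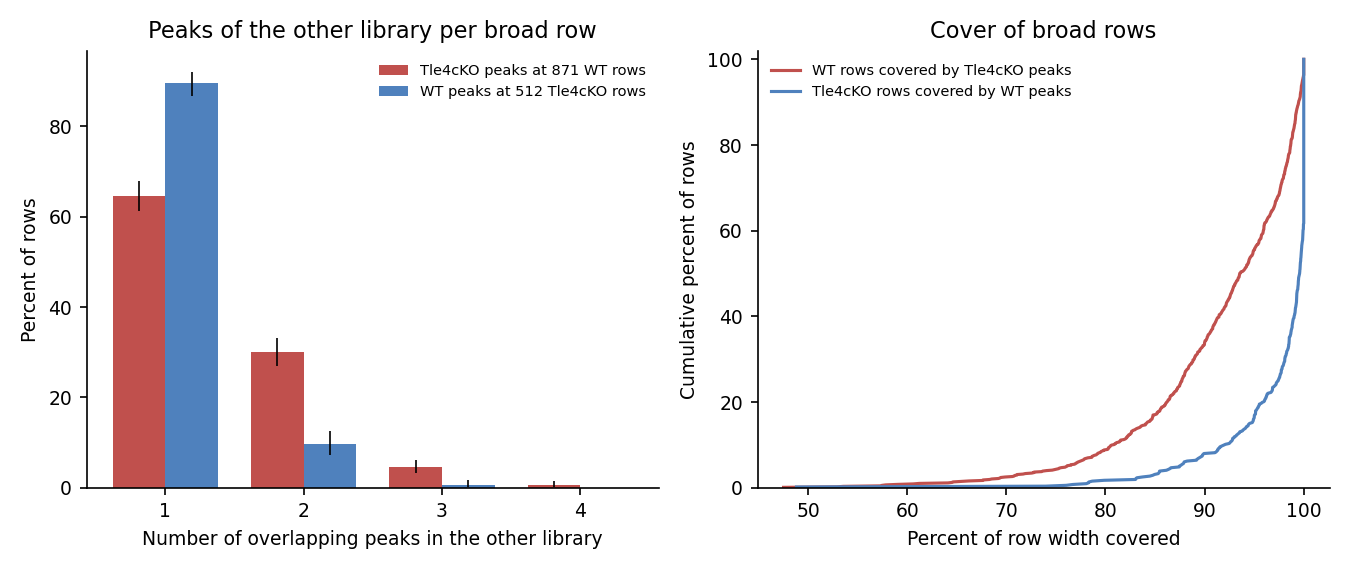
Left, percent of broad peaks (y axis) by the number of peaks of the other library that overlap them (x axis), for the 871 WT domains met by Tle4cKO peaks and the 512 Tle4cKO peaks of 2500 bp or more met by WT peaks, with exact 95% intervals for counting error; right, cumulative percent of the same peaks (y axis) by the percent of their width covered by the other list (x axis). Domains chosen in WT are split in 35.4% of cases and those chosen in Tle4cKO in 10.4%.

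Tle4cKO peaks covered a median of 93.5% of domain width, with quartiles of 87.7% and 98.2%. They covered 33 domains fully, 576 by at least 90% and 37 by less than 75%. In sum 204593 bp, or 8.31% of domain width, lay outside Tle4cKO peaks, of which 61.8% was at the outer edges and 38.2% between pieces. Mean cover was 91.7% in domains and 91.4% in other WT peaks of like pileup, so the covered share itself did not set domains apart. The total width of the overlapping Tle4cKO peaks, parts beyond the domain included, had a median of 2610 bp and a median ratio to the WT width of 0.949. The mean of that ratio was 0.931, against 0.964 in other WT peaks of like pileup, which were not chosen for large width. Total width was larger in Tle4cKO than in WT at 136 domains (15.6%). The upper quartile of the ratio was 0.989 in domains and 1.03 in all other WT peaks with an overlap.

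The least covered domains were low in both libraries. Tmem178b was covered by 47.5%, with pileups of 19 in Tle4cKO and 24 in WT. Arhgap32 was covered by 52.9%, with 40 in Tle4cKO and 48 in WT. The domain nearest to Diras2 was covered by 53.5%, with 24 in Tle4cKO and 29 in WT. Kcnh3, a potassium channel gene, was covered by 57.3%, with 29 in Tle4cKO and 37 in WT, and Plbd1 by 57.4%, with 20 in Tle4cKO and 23 in WT. These are the highest Tle4cKO pileups in each domain. The Tle4cKO peak over the WT summit was lower at Plbd1, with 10, and at Tmem178b, with 15. The WT pileups of all 5 were far under the domains' median of 152.

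The summit itself stayed in place in most domains. The summit of the highest Tle4cKO peak lay a median of 25 bp from the WT summit. It was within 100 bp in 659 domains (75.7%) and within 10 bp in 279 (32.0%). It was more than 500 bp away in 83 domains (9.53%).

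In the reverse direction, 512 Tle4cKO peaks on chromosomes 1 to 19 were 2500 bp or wider, against 871 in the WT list. Of these 512, 432 (84.4%) overlapped a WT domain, and the widest Tle4cKO peak was 2500 bp or more in 432 of the 871 domains (49.6%). WT peaks covered the 512 by a median of 99.6%, and 53 of them (10.4%, exact 95% interval 7.85 to 13.3%) met 2 or more WT peaks. The median ratio of total WT width to Tle4cKO width was 1.01. Taking an equal number of the widest peaks in each list, the 871 widest Tle4cKO peaks reached down to 2327 bp, and 526 of the 871 domains overlapped them. Of these Tle4cKO peaks, 81 (9.30%) met 2 or more WT peaks. With WT peaks less than 200 bp apart joined, 4.30% of the 512 met 2 or more, and with those less than 500 bp apart joined, 0.781% did. The share of split domains was thus higher for those chosen in WT at each of these settings, at low levels in both directions after joining over 500 bp, and the part of the lower Tle4cKO pileups in this was not tested.

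At some genes the Tle4cKO list joined what the WT list kept apart. At Csf1r, 1 Tle4cKO peak of 3768 bp (pileup 164) took in the WT domain of 2583 bp (pileup 196) and a WT peak of 910 bp (pileup 178), the largest total width relative to WT among the domains, at 1.46. L3mbtl3 had 1 Tle4cKO peak of 3604 bp over a WT domain of 2521 bp and a WT peak of 815 bp. Fam111a had 1 Tle4cKO peak of 3665 bp over a WT domain of 2623 bp and a WT peak of 895 bp. Thbd, which encodes thrombomodulin, had 1 Tle4cKO peak of 3375 bp over a WT domain of 2684 bp and a WT peak of 845 bp. In each of these 4 the Tle4cKO pileup was below that of the WT domain, as in 869 of all 871 domains. Their relative ratios were 1.02 at Csf1r, 1.05 at L3mbtl3, 1.03 at Fam111a and 1.15 at Thbd. The gap between the WT peaks at L3mbtl3, Fam111a and Thbd was within the shorter joining distance used above. That at Csf1r was within the longer one only. Whether joining goes with summit height was not tested. Stat5a, at a total width of 1.28 relative to WT, was both joined and split. Its Tle4cKO peaks of 1042 and 2211 bp lay over the WT domain of 2532 bp, and the wider also overlapped a WT peak of 800 bp. The genes of this paragraph were chosen after their values were seen.

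The same was seen at Tle4cKO peaks with no WT domain. Cd74, which encodes the invariant chain of MHC class II, held the widest of all, 1 Tle4cKO peak of 4649 bp (pileup 187) over WT peaks of 2103, 1005 and 999 bp (pileups 219, 146 and 180). Mmp2, a matrix protease gene, had a Tle4cKO peak of 3819 bp (pileup 122) over WT peaks of 1113 and 2481 bp (pileups 140 and 152). Rasgrp2 had a Tle4cKO peak of 3646 bp over WT peaks of 2415 and 1135 bp. Tgfb1 had a Tle4cKO peak of 3457 bp over WT peaks of 1620 and 1369 bp, at another place than its WT domain. Arid2, a chromatin remodelling gene, had a Tle4cKO peak of 3194 bp over WT peaks of 1253 and 1904 bp. Within MHC class II genes, as the peaks were called, Cd74 was thus joined in the Tle4cKO list while H2-Ab1 and H2-Eb1 were split. H2-Aa was a single peak in both lists. The contrast depends on the gaps between called peaks. The shorter joining distance used above makes the H2-Ab1 pieces a single peak, and the longer one does so for H2-Eb1. At Cd74 the wider gap between WT peaks, from chr18:60806219 to 60806746, exceeds both distances. The highest summit was lower in Tle4cKO than in WT at all genes of this paragraph. The same held for 869 of the 871 domains and for 89.6% of other WT peaks with an overlap.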

How the data were processed

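ATAC-seq was done on 1 library per genotype. The authors deposited 1 peak list per library, in which the pileup at each summit is a signal in whole numbers, per the file headers and values, with coordinates counted from 1. Per the submitters' processing notes, which state no roles, MACS2 2.1.1, HOMER 4.7.2, Bowtie2 2.2.5 and cutadapt 1.14 were used with the mm10 build. Tools that the notes name for read counts concern values not used here. How peaks were thresholded, duplicates handled and reads shifted for the transposase, and whether the libraries were scaled, is not given in the sources used here.

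Peaks were overlapped by at least 1 bp with Python 3.11.15, numpy 2.4.6, pandas 2.3.3 and SciPy 1.17.1. The relative ratio is log2(highest Tle4cKO pileup / WT pileup) minus its bin's median (50 bins by the sum of both pileups), and is counted from 25% above or 20% below. Other WT peaks of like pileup are averaged over 20 pileup classes weighted by the domains, promoters over 10. Gene positions, promoters and miRNAs come from RefSeq tables of GRCm38.p6, the assembly behind mm10. Shares have exact Clopper-Pearson 95% intervals, which cover counting error only. The steps were tested on simulated data.

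Named domains were the 10 widest, the 10 highest, the 10 with most Tle4cKO peaks, the 5 least covered, the 5 highest and 5 lowest relative ratios, the 5 on each side of 2500 bp and up to 5 per gene list, and some genes that this rule names are not described. A domain takes the name of the protein-coding gene with an end within 1000 bp of its summit, otherwise of the gene body, otherwise of the nearest gene. Predicted genes (such as Gm, Rik and LOC symbols), miRNA and tRNA genes are passed over unless no other gene lies within 10 kb. The domains and the 30 gene lists were chosen with earlier results of these data known.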

Additional observations from a re-analysis of the deposited data

How the results depend on the processing

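A minimum width of 2000, 3000 or 4000 bp gave 3462, 180 or 5 domains. With these widths 26.3%, 48.9% or 80.0% of the domains had 2 or more Tle4cKO peaks, and the median cover was 92.6% at 3000 bp and 88.0% at 4000 bp. Joining Tle4cKO peaks less than 500 bp apart left 1.95% of domains split, and joining those less than 200 bp apart, an alternative added after seeing the data, left 15.4%. In the reverse direction, joining WT peaks less than 200 or 500 bp apart, also added after seeing the data, left 4.30% or 0.781% of the broad Tle4cKO peaks with 2 or more. The median width ratio was 0.935 counting only the part inside the domain. The median relative ratio, 1.01 as reported, was 1.02 by bins of WT pileup and 1.08 against the median over all pairs. The gene-end share was 42.4% within 500 bp, 66.0% within 2500 bp, 66.4% by any overlap of the domain and 61.1% with starts of the promoter table added after seeing the data. The gene-end share of domains exceeded that of all other WT peaks by 39.1 percentage points and that of other WT peaks of like pileup by 8.36 points. An equal number of Tle4cKO peaks means 871 in place of 512. The other 8 of 29 alternatives moved a share or median by less than its 95% interval, or a count by less than 1.5 times. No paired analysis was possible because each genotype has 1 library, and for the same reason no replicate could be left out.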

Other observations

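Domains per 100 protein-coding genes ranged from 2.91 on chromosome 7 to 6.67 on chromosome 18. Neighbouring domains were a median of 1249540 bp apart, 83 of 852 neighbouring pairs were less than 100 kb apart and 4 were less than 10 kb apart. On the X chromosome, which the choice of domains leaves out, 23 WT peaks were 2500 bp or wider.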
